A study of Mus musculus with 24 samples.

Results

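The comparison described here set the RNA of the polysome fraction against total RNA in inhibitor-treated LCH dendritic cells, that is, in cells whose mutant BRAF was blocked. Its members were the 3 polysome and the 3 total RNA libraries of LCH cells with a positive inhibitor status, 6 of the 24 libraries of the series. They were taken by the column names of the deposited table and paired by pool (E, F and G). For pool G the polysome column is named GH and the total RNA column G. What the letter H stands for is not given, so this pair may not be exact. The series covered WT and LCH mouse bone marrow-derived dendritic cells, each with and without the inhibitor and each as total and polysome RNA, with 3 libraries in each of 8 groups. The treated LCH cells carried the LCH genotype, which the series title ties to BRAF-V600E, an activating mutation of a kinase upstream of MEK and ERK. The untreated LCH cells, used below for one test, had the same genotype and the same labelled treatment but for the inhibitor. All cells had been grown from bulk marrow for 7 days in GM-CSF-rich medium, the treated ones then received a BRAF-V600E inhibitor for 1 h, and all were stimulated with lipopolysaccharide (LPS, labelled 100 ug/mL) for 3 h and given a cycloheximide pulse (100 ug/mL). Total RNA came from an aliquot of the same cells, and polysome RNA from pooled gradient fractions labelled as over 2 polysomes. The promoter that drives the mutant allele and the age of the mice are not given in the sources used here.

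A polysome is a messenger RNA that carries several ribosomes at once. Cycloheximide holds those ribosomes in place, so that sedimentation separates messages under active translation from free messages and single ribosomes. A message with a higher share of polysome RNA than of total RNA is usually read as well translated, and in macrophages exposed to LPS the messages of some feedback inhibitors are known to be regulated at this step. Each ratio below is relative to the other messages of the same library, so it gives no absolute amount of ribosome-bound RNA. In bulk libraries fewer cells of a type and less RNA per cell cannot be told apart.

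The treated polysome libraries held 30455139, 10999310 and 13863885 counts in pools E, F and G, and the total RNA libraries 28911700, 26380809 and 39792221. Rn18s, mt-Rnr1, mt-Rnr2 and Lars2, 4 gene models that collect ribosomal RNA reads, took 40.9%, 60.7% and 18% of polysome counts and 1.84%, 1.87% and 1.19% of total RNA counts, and were left out before scaling. Pool G stood apart in both fractions: 11 satellite-type gene models took 25.6% of its polysome counts and 25.4% of its total RNA counts, against at most 0.0034% in pools E and F. Pool G also had a count for 36772 and 38431 gene models, against 11077 to 18406 in the other 4 libraries. The part of these satellite-type counts in the results was not tested, and list counts and medians that moved by over 1.5 times without pool G, and calls lost without it, are given beside the results they touch. As to the label, 17 of the 18 listed dendritic markers were tested. They summed to 5698 to 6613 CPM (scaled counts relative to library size) in total RNA, with the integrin gene Itgax at 675, 680 and 674 CPM. Macrophage and monocyte markers, which such cultures also carry, summed to 7639 to 10753 CPM, and neutrophil and granulocyte markers to 420.0 to 563.0 CPM. The 1 erythroid marker tested stayed at or below 0.683 CPM in total RNA.

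Of 13487 protein-coding genes tested, 3994 (29.6%) differed between polysome and total RNA at an adjusted p below 0.05 in edgeR's quasi-likelihood test, with pool as a block and Benjamini-Hochberg adjustment over all 15739 genes tested. In the polysome fraction 1699 (12.6%) were higher and 2295 (17%) were lower. These shares are the background for every list count below. The ratio had the same sign in all 3 pools for 3987 of the 3994. Among the called genes, 444 had a log2 ratio above 2 and 384 had one below -2. The median log2 ratio over all protein-coding genes was -0.27, with quartiles of -1.13 and 0.64, and the medians within pools E, F and G were -0.30, -0.38 and 0.10. The median depended on the pools and settings: it was -0.47 without pool G, -0.09 with upper quartile scaling and -0.02 with no low-count filter. Of the calls 42.5% were higher in the main result, 51.8% with upper quartile scaling and 35.7% with no low-count filter. The design text calls the repeats biological, but what a pool holds is not given, so the p-values measure the spread between these 3 pools.

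**Figure D1:**
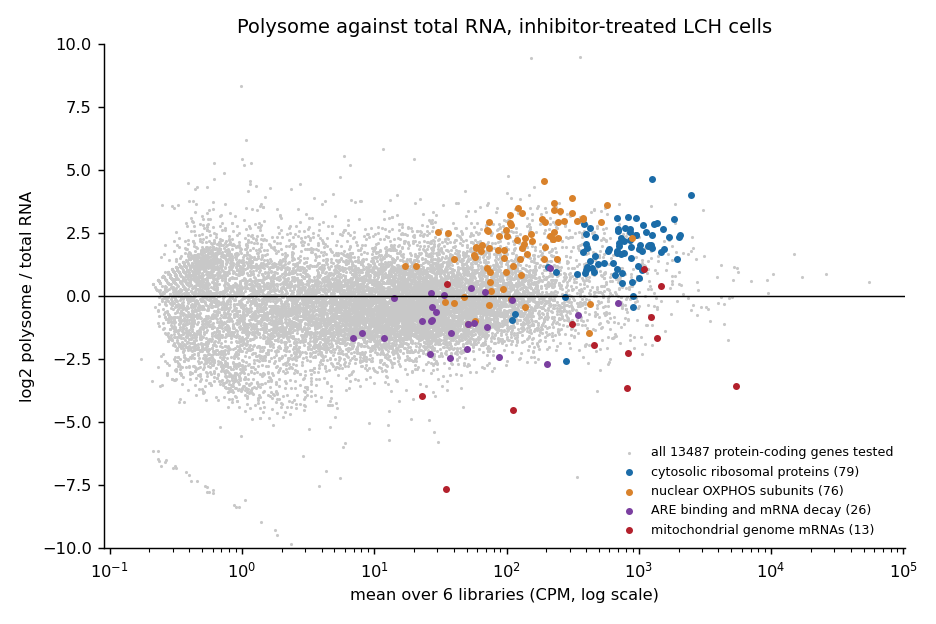
Each point is a protein-coding gene: the x axis is its mean over the 6 treated LCH libraries (CPM, log scale) and the y axis its fitted log2 ratio of polysome over total RNA, with 4 gene lists coloured and 8 genes beyond the y axis not drawn. Ribosomal protein and nuclear respiratory chain genes sit mostly above 0, and messages of the mitochondrial genome and of RNA decay factors mostly below.

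The messages for the ribosome itself were among the most polysome-rich. Of 79 cytosolic ribosomal protein genes, 72 were higher in polysome RNA and 1 was lower (2 lower without any 1 of the pools), where 12.6% and 17% of all tested protein-coding genes were, and their median log2 ratio was 1.88 against -0.27 over all genes. Rpl38, a protein of the large subunit, had 2854, 3287 and 1152 CPM in the polysome libraries of pools E, F and G and 92.4, 91.4 and 83.2 CPM in total RNA, a log2 ratio of 4.64 (SE 0.30, adjusted p 1.4e-06). The fractions did not overlap, and pool G was the lowest of the 3 polysome values. Rplp2, an acidic protein of the ribosomal stalk, had 5337, 6310 and 2466 CPM against 291, 282 and 248 (log2 ratio 4.0, adjusted p 4.8e-08), again with a gap between fractions and the least rise in pool G. Fau, whose product is cut into a ribosomal protein of the small subunit and a ubiquitin-like part, had 2909, 2734 and 1697 CPM against 337, 334 and 282 (log2 ratio 2.91). Rpl37 had 1886, 1660 and 948 CPM against 164, 173 and 149 (log2 ratio 3.15). The 1 lower member was Rpl10, named here after its values were seen, with 85.0, 61.8 and 98.6 CPM against 511, 499 and 442 (log2 ratio -2.58, adjusted p 9.7e-08, and 0.11 with all 12 LCH libraries in the fit). Ribosomal protein genes have many near-identical pseudogene copies among which the authors' counting could split reads, so each single value is uncertain to that extent.

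Ribosomal protein messages are the classic 5′ TOP messages, which begin with a C and a run of pyrimidines and through it are coupled to growth signalling. The windows below show this start for 3 of the genes just described, taken from RefSeq on GRCm38.p6 from 15 bases before to 15 bases from the annotated start, 5′ to 3′ on the gene's strand. Capitals mark a C at the annotated start with the pyrimidines that follow it. The 3 were picked because they hold such a run; the windows of Rpl37 and Rpl10 hold none at the annotated start.
Rpl38, chr11:114668565-114668594, plus strand: agcggaagcctcgttCTTTCCCCgttctct
Rplp2, chr7:141447636-141447665, plus strand: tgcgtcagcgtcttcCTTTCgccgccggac
Fau, chr19:6057932-6057961, plus strand: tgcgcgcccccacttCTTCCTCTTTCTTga
A C followed by at least 4 pyrimidines (C or T) on the gene's strand, exactly at the annotated start, was present for 14 of the 58 ribosomal protein genes that the promoter table held. Over all 27025 genes of that table it was present for 3.01%. Because the table matched only 58 of 79 ribosomal protein genes and 10690 of 13487 protein-coding genes tested, both under 80%, a check of this start over the list is void and no comparison is drawn from it.

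The other messages known to carry such a start were more mixed. Of 25, 12 were higher and 3 were lower in polysome RNA (1 lower without pool F), with a median log2 ratio of 0.47. Eef1d and Eef1b2, which encode exchange factors that recharge the elongation factor eEF1A, were higher with log2 ratios of 3.19 (adjusted p 1.4e-08) and 2.49 (adjusted p 1e-07). Eef1a1, the message for eEF1A itself, had 4313, 2811 and 3733 CPM in polysome RNA and 4799, 4393 and 3933 CPM in total RNA. Its fractions overlapped, and its log2 ratio of -0.29 (SE 0.19, adjusted p 0.33) did not pass the test. Tpt1, a small and abundant growth-related protein, was higher at 2323, 2331 and 1665 CPM against 724, 736 and 634 (log2 ratio 1.58, adjusted p 5.3e-06). Eef1a1 and Tpt1 were named after their values were seen.

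Initiation and charging factors moved in both directions. Of 34 initiation factor genes, 11 were higher and 6 lower (2 lower without pool E), with a median of 0.15. Over all tested protein-coding genes 12.6% were higher and 17% lower. Eif3k, a subunit of the scaffold factor eIF3, had 631, 581 and 326 CPM against 82.5, 83.9 and 71.5 (log2 ratio 2.64, adjusted p 6.6e-08), and Eif1, which guards start codon choice, had 1515, 1562 and 1096 CPM against 323, 337 and 299 (log2 ratio 2.10). Eif4ebp3, a binding protein that blocks the cap-binding factor eIF4E, had 29.6, 36.6 and 17.6 CPM against 2.27, 1.10 and 1.78 (log2 ratio 3.99, adjusted p 1.9e-06). Of 23 genes of transfer RNA synthetases and their scaffold, 9 were higher and 3 lower (1 lower without pool F), led by the scaffold gene Aimp1 at 151, 120 and 120 CPM against 23.2, 23.9 and 19.2.

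Messages for the mitochondrion split by the genome that encodes them. Those of the nuclear genome are translated on cytosolic ribosomes, whereas those of the mitochondrial genome are translated inside the organelle. Of 76 nuclear genes for subunits of the respiratory chain and ATP synthase, 64 were higher in polysome RNA and 3 lower, with a median log2 ratio of 2.13. Ndufa5, a complex I subunit, had 441, 469 and 191 CPM against 14.6, 15 and 13.2 (log2 ratio 4.58, adjusted p 3e-08). Ndufa3 of the same complex had 684, 754 and 335 CPM against 39.3, 38.6 and 35.1 (log2 ratio 3.89). Cox5a, a subunit of cytochrome c oxidase, had 1205, 1247 and 723 CPM against 89.1, 88.1 and 76.1 (log2 ratio 3.61, adjusted p 5.9e-09). In all 3 genes every polysome library stood above every total RNA library, with pool G the lowest of the polysome values.

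The 3 lower members, named after their values were seen, were Cyc1, Atp5b and Atp5c1, which encode cytochrome c1 and the beta and gamma subunits of ATP synthase. Cyc1 had 30.4, 24.0 and 45.5 CPM in polysome RNA against 73.3, 70.5 and 64.8 in total RNA (log2 ratio -1.11, adjusted p 0.0019). Atp5b had 255, 112 and 347 CPM against 646, 627 and 549 (log2 ratio -1.49, adjusted p 0.03). That direction turned when the authors' own gene-wise factors were used as offsets: Atp5b then had a log2 ratio of 1.03 (adjusted p 0.0017). Of 78 mitochondrial ribosomal protein genes, 51 were higher and 2 lower, with a median of 1.32 (36 higher and 0 lower without pool E). Mrps28 and Mrps25, of the small mitochondrial subunit, led them with log2 ratios of 3.60 and 3.38.

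Of the 13 messages of the mitochondrial genome, 8 were lower and 1 higher in the polysome fraction, with a median log2 ratio of -1.96, and 3 were higher without pool G. As a class they made up 0.350%, 0.344% and 0.274% of polysome counts and 2.64%, 2.35% and 1.75% of total RNA counts. The exact paired permutation test over the 3 pools gave a two-sided p of 0.25, the smallest that 3 pairs allow. mt-Co1, a core subunit of cytochrome c oxidase, had 901, 681 and 981 CPM against 10728, 9696 and 9418 (log2 ratio -3.56, SE 0.21, adjusted p 7.2e-09). mt-Nd5 had 140, 96.6 and 125 CPM against 1579, 1350 and 1617 (log2 ratio -3.66), and the log2 ratios of mt-Nd4 and mt-Atp8 were -2.27 and -4.54. The members did not move alike: mt-Co3 was higher at 1497, 2007 and 968 CPM against 651, 605 and 816 (log2 ratio 1.06, adjusted p 0.015). Without pool F the value for mt-Co3 was 0.69 with an adjusted p of 0.22. mt-Co2 had 1429, 2829 and 941 CPM against 1197, 1227 and 1143, so that its fractions overlapped (log2 ratio 0.39, adjusted p 0.37). Without pool G its log2 ratio was 0.75 with an adjusted p of 0.045, and without pool F it was -0.05.

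**Figure D2:**
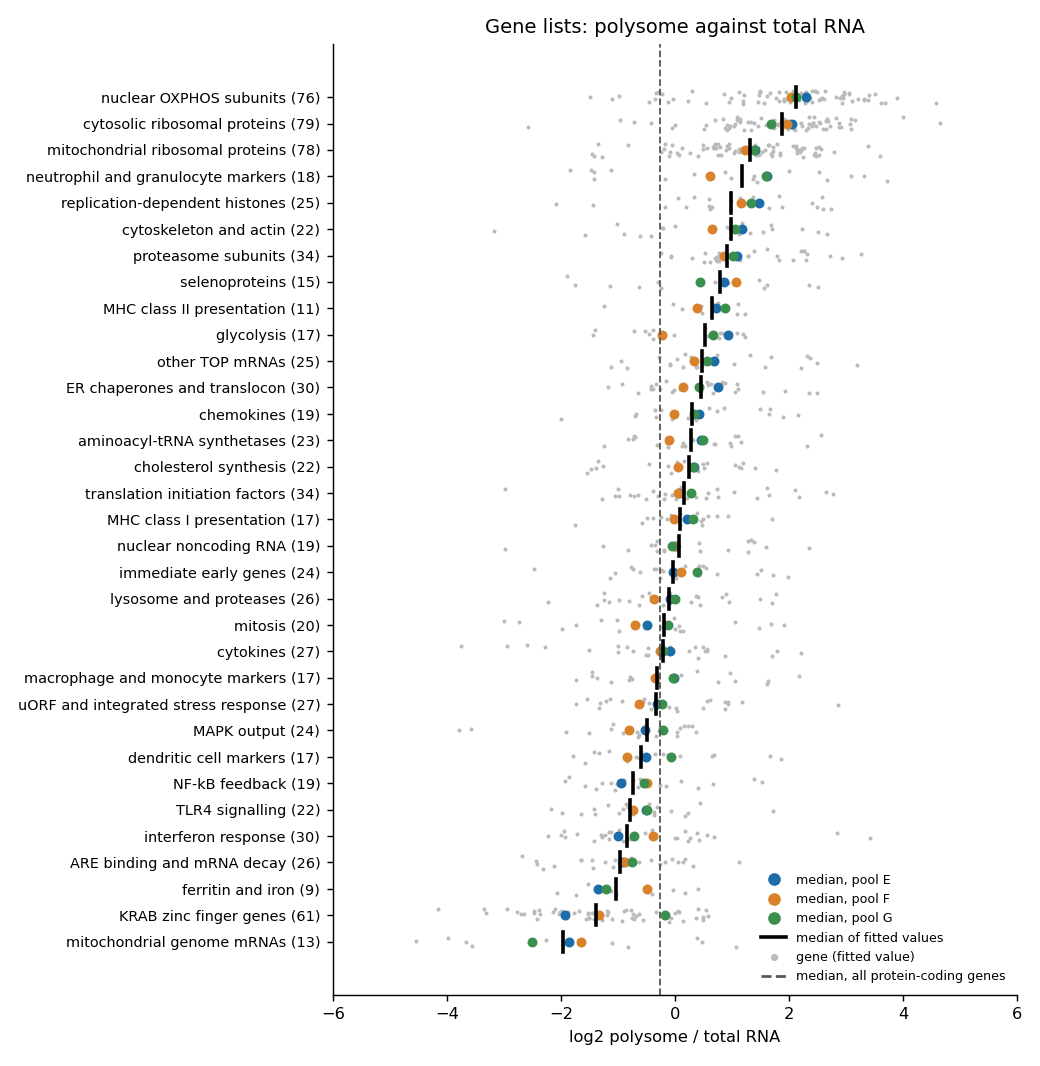
Rows are gene lists with their number of tested genes, and the x axis is the log2 ratio of polysome over total RNA; grey points are genes, coloured points the medians within pools E, F and G, and black bars the medians of the fitted values, with 4 genes beyond the axis not drawn. The list medians run from -1.96 for messages of the mitochondrial genome to 2.13 for nuclear respiratory chain subunits, and the dashed line marks -0.27, the median of all protein-coding genes.

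Proteasome genes were mostly higher in polysome RNA, and genes of the cytoskeleton and the endoplasmic reticulum were more mixed. Of 34 proteasome subunit genes, 28 were higher and 0 lower, with a median log2 ratio of 0.91. Psmb10, a catalytic subunit of the immunoproteasome that interferon and LPS induce, had 1049, 1141 and 925 CPM against 92.7, 102 and 136 (log2 ratio 3.25, adjusted p 1.5e-08). Psmd13, of the regulatory lid, had 756, 784 and 379 CPM against 85.2, 84.2 and 72.5 (log2 ratio 2.92). Among 22 cytoskeleton genes 13 were higher and 5 lower. Arpc3, a subunit of the Arp2/3 complex that branches actin filaments, had a log2 ratio of 2.50, and Tuba1b, an alpha-tubulin, one of 2.23. Actb, named after its values were seen, had 24983, 23224 and 19761 CPM against 6924, 6912 and 7250 (log2 ratio 1.68), and 3.68 with the authors' gene-wise factors. Of 30 genes of endoplasmic reticulum chaperones and the translocon, 13 were higher and 3 lower, and 8 were higher and 1 lower without pool E. Sec61b of the translocon had a log2 ratio of 2.49, and Hsp90b1, a chaperone that folds Toll-like receptors, had 4280, 6163 and 2416 CPM against 727, 830 and 801 (log2 ratio 2.35).

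Outside these groups the largest rises were spread over genes of unrelated function. Exosc6, a subunit of the RNA exosome, had 28.2, 31.8 and 10.5 CPM in polysome RNA and no count in any total RNA library. That is at least 273-fold against a floor of 3 counts per library, and its log2 ratio in untreated cells was 12.7. Total RNA should also hold the messages found in polysomes, so this fold is not read as polysome loading. How reads were assigned to Exosc6 was not tested. The same limit bears on the other large rises, among them those of Rpl38, Ndufa5 and the genes that follow. How far such ratios measure polysome loading, and not a difference between the 2 kinds of library, was not tested. Ptprcap, a protein associated with the phosphatase CD45, had 44.8, 59.1 and 14.1 CPM against 1.04, 0.732 and 0.621 (log2 ratio 5.43, adjusted p 5e-08). Usp50, an inactive relative of deubiquitinases, had 225, 274 and 98.4 CPM against 6.42, 7.11 and 6.63 (log2 ratio 4.77). Tmem160, S100a13, Tmem256 and Scand1 had log2 ratios of 4.33, 4.07, 4.03 and 3.88. In all of these the fractions were far apart and pool G had the lowest polysome value.

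The largest falls left some messages close to no count in polysome RNA. Tlr8, a Toll-like receptor of endosomes, had 0, 0 and 0.253 CPM in polysome RNA and 7.38, 10.01 and 15.6 CPM in total RNA (adjusted p 1.9e-05). Atp7a, a copper pump, had 1.16, 0.916 and 1.01 CPM against 27.8, 21.8 and 24.7 (log2 ratio -4.58, adjusted p 4.3e-07). Trpm7, an ion channel fused to a kinase, had 3.55, 3.21 and 4.42 CPM against 56.6, 48.8 and 49.3 (log2 ratio -3.80, adjusted p 7.7e-08). Adap2 had 0.349, 0 and 5.68 CPM against 33.0, 34.0 and 96.4 (adjusted p 0.0069). Fig4 and Tmem184c were at or below 0.884 and 1.77 CPM in polysome RNA, and mt-Nd4l at or below 1.26 CPM against 66.3, 65.7 and 74.5. Cmip had a log2 ratio of -3.98 and Ano6, a lipid scramblase, one of -4.09.

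Across 8496 nuclear protein-coding genes with a mean of at least 5 CPM, the ratio ran with the span of the gene from start to end, introns included. The median log2 ratio was 1.53 for 179 genes of up to 2 kb, 1.09 for 440 genes of 2 to 4 kb, 0.07 for 1556 genes of 8 to 16 kb and -0.84 for 641 genes of over 128 kb. In the shortest class 65.4% of the genes were higher in polysome RNA and 2.79% lower, and in the longest 4.68% were higher and 43.2% lower. Spearman's correlation across these genes was -0.435, and within pools E, F and G it was -0.433, -0.366 and -0.434. It is a description across genes that share libraries, with no test. Without the 3 lists of ribosomal, mitochondrial ribosomal and respiratory chain proteins the medians of the 2 shortest classes were 1.48 and 0.94. The part of gene span in the ratios of the lists was not tested. Transcript length was not used here.

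**Figure D3:**
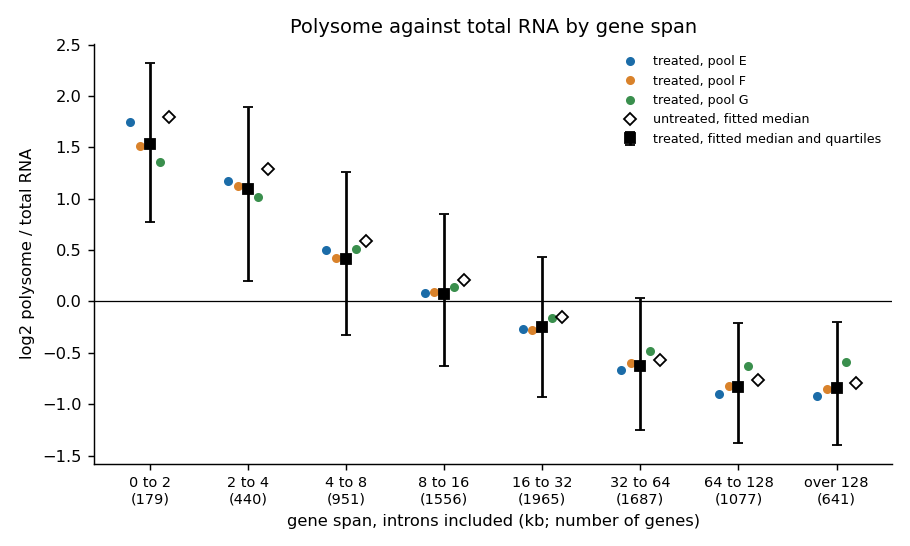
The x axis gives classes of gene span (kb, with the number of genes) and the y axis the log2 ratio of polysome over total RNA; squares and bars are the median and quartiles of the fitted values in treated LCH cells, circles the medians within pools and diamonds the median in untreated LCH cells. The median is 1.53 in the shortest class and -0.84 in the longest, and each pool and the untreated cells have the same order of these 2 classes.

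Cytokine messages did not share a direction. Tnf, the message named in the title of the series, had 1757, 1858 and 1793 CPM in polysome RNA of pools E, F and G and 1867, 2228 and 2200 CPM in total RNA. Every polysome value lay below every total RNA value, but the log2 ratio of -0.22 (SE 0.18, adjusted p 0.47) did not pass the test and lay close to the median of all genes. Of 27 cytokine genes, 3 were higher and 7 lower, where 12.6% and 17% of all tested protein-coding genes were. The other cytokine genes did not pass the test, and the list median was -0.22 (-0.37 without pool G). Leaving out pool E, F or G, 2, 5 and 4 cytokine genes were higher and 6 were lower each time.

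Il12b, the shared subunit of interleukins 12 and 23, had the largest fall of the called cytokines, with 75.1, 40.3 and 94.3 CPM in polysome RNA against 905, 951 and 856 CPM in total RNA (log2 ratio -3.76, SE 0.27, adjusted p 1.4e-06). Its 2 fractions did not come near each other in any pool. Tnfsf15, a ligand of the TNF family, had 136, 158 and 222 CPM against 952, 1009 and 1100 (log2 ratio -2.60, adjusted p 4.7e-08). Il1a had 405, 249 and 450 CPM against 1712, 1805 and 1718 (log2 ratio -2.29, adjusted p 4.7e-07).

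The 4 other falls were smaller. Il27, a subunit of interleukin 27, had 25.4, 46.9 and 86.2 CPM against 90.4, 115 and 229 (log2 ratio -1.51), with the highest value of each fraction in pool G, and without the block for pools its adjusted p was 0.065. Csf1, the macrophage growth factor, had 189, 200 and 241 CPM against 414, 400 and 444 (log2 ratio -1.0). Il6, a pyrogenic cytokine, had 356, 308 and 503 CPM against 666, 754 and 884 (log2 ratio -1.0, adjusted p 0.00051), and without pool F its value was -0.89 with an adjusted p of 0.056. Il1b had 3080, 2569 and 2579 CPM against 4209, 3966 and 3578 (log2 ratio -0.52, adjusted p 0.045). The call for Il1b was lost without any of the pools, at adjusted p values of 0.30, 0.51 and 0.075 without E, F and G. It was also lost with DESeq2 size factors (0.20), upper quartile scaling (0.31), no low-count filter (0.23) and no block for pools (0.073). Further losses came with ribosomal RNA-type genes kept (0.18), nuclear protein-coding genes only (0.059) and the authors' gene-wise factors (0.12).

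The other 3 called cytokines were higher in polysome RNA. Ebi3, which pairs with Il27 in interleukin 27, had 439, 512 and 472 CPM against 137, 128 and 146 (log2 ratio 1.79, adjusted p 1.4e-06), with a gap between fractions opposite to that of Il27. Ifnb1, the interferon induced first by LPS, had 23.6, 13.5 and 49.5 CPM against 5.65, 6.47 and 13.3 (log2 ratio 1.69, adjusted p 0.0007). Osm, of the interleukin 6 family, had 44.8, 44.2 and 25.9 CPM against 20.1, 25.1 and 16.5 (log2 ratio 0.87, adjusted p 0.016), and 0.75 with an adjusted p of 0.23 without pool E. Il1b, Il6, Il27, Csf1, Ifnb1 and Osm complete the called cytokines and were named after their values were seen.

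Chemokines, the ligands that draw other leukocytes, had 6 of 19 genes higher and 3 lower, with a median of 0.30. Without pool E or without pool F, 1 was lower. With nuclear protein-coding genes only, 18 of the list were tested, with 6 higher, 2 lower and a median of 0.39. Over all tested protein-coding genes 12.6% were higher and 17% lower. Ccl4, an attractant of monocytes and T cells, had 4134, 3867 and 4117 CPM against 905, 1121 and 1268 (log2 ratio 1.89, adjusted p 1.2e-06). Ccl17, a dendritic cell product that draws T cells, had 2933, 2147 and 2544 CPM against 841, 820 and 716 (log2 ratio 1.67). The monocyte attractants Ccl7 and Ccl12 had log2 ratios of 1.65 and 1.48. Each of the 4 genes had all polysome values above all total RNA values. Cxcl11, an interferon-induced ligand named after its values were seen, was lower at 2.68, 1.60 and 8.96 CPM against 9.59, 13.2 and 23.8 (log2 ratio -2.0, adjusted p 0.0025, and 0.073 without the block for pools).

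**Figure D4:**
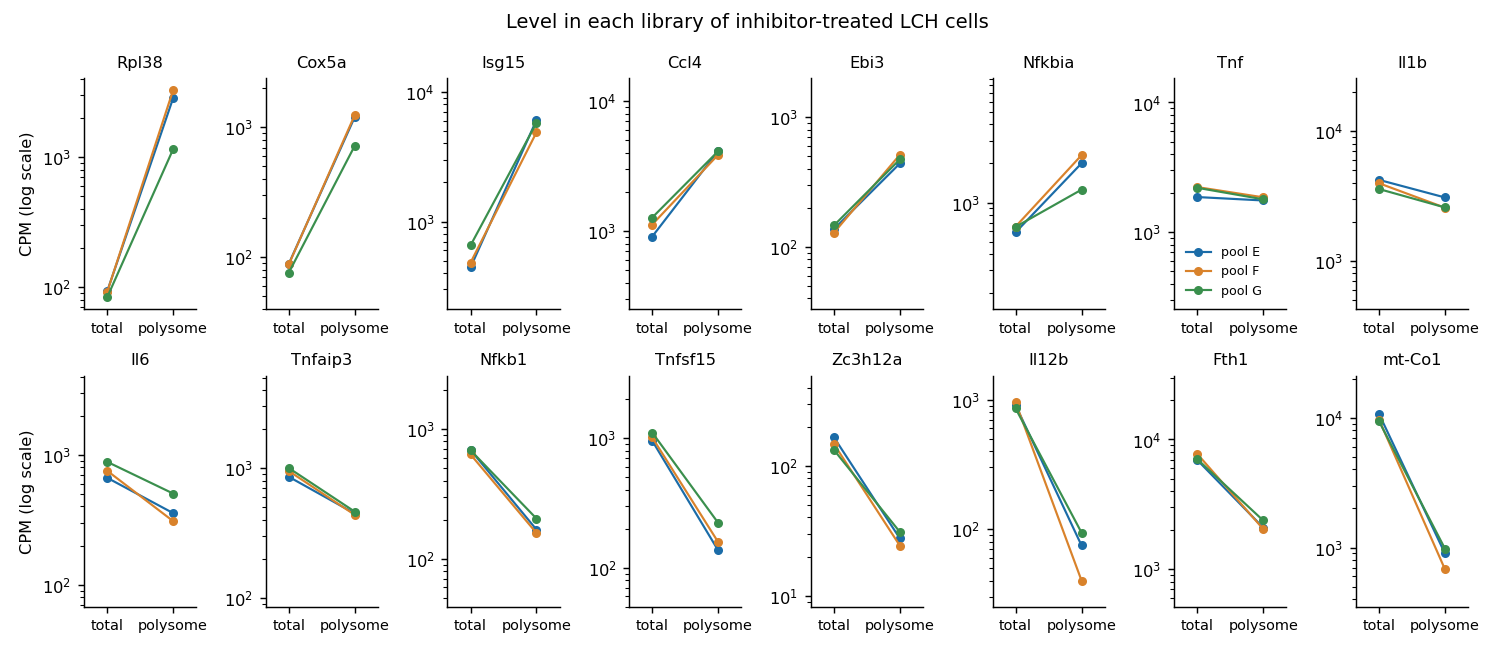
Each panel is a gene, with its level in total and polysome RNA on the y axis (CPM, log scale of equal width in every panel) and a line per pool of treated LCH cells. Rpl38, Cox5a, Isg15, Ccl4, Ebi3 and Nfkbia rise in all 3 pools, Tnf stays within 1757 to 2228 CPM, and the other genes fall in all 3 pools, Il12b from 856 to 951 CPM down to 40.3 to 94.3 CPM.

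In the receptor pathway and among its regulators more genes were lower than higher in polysome RNA. Of 22 genes of Toll-like receptor 4 signalling, 11 were lower and 1 higher, with a median log2 ratio of -0.78, and without pool E 6 were lower. Tlr4, the LPS receptor, named after its values were seen, had 4.71, 2.29 and 3.03 CPM against 11.2, 15.6 and 19.0 (log2 ratio -2.18, adjusted p 0.002), and without pool G its adjusted p was 0.052. Chuk and Ikbkg, 2 subunits of the IkB kinase, had 19.9, 15.8 and 15.9 CPM against 49.2, 45.3 and 44.0 and 16.1, 7.33 and 12.9 CPM against 37.9, 36.8 and 36.4. Their log2 ratios were -1.43 and -1.65. The kinases Tbk1 and Irak1 were lower with log2 ratios of -1.17 and -1.40.

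Among 19 genes of NF-kB and its feedback, 10 were lower and 3 higher, and 6 were lower without pool E. Nfkb1, which encodes p105 and p50, had 168, 158 and 204 CPM against 689, 636 and 685 (log2 ratio -1.93, adjusted p 6.1e-07). Nfkbiz, an inducible nuclear IkB protein, had 330, 239 and 381 CPM against 1178, 1042 and 1185 (log2 ratio -1.86), and Rel, an NF-kB subunit, had 119, 90.9 and 123 against 351, 291 and 345 (log2 ratio -1.57). The inhibitors of the pathway went apart. Nfkbia, the cytosolic inhibitor IkB-alpha, had 2006, 2316 and 1256 CPM against 589, 652 and 649 (log2 ratio 1.52, adjusted p 3e-05). Tnfaip3, the ubiquitin-editing inhibitor A20, had 448, 437 and 463 CPM against 859, 952 and 1003 (log2 ratio -1.06, adjusted p 0.00023). Nfkbia and Tnfaip3 were named after their values were seen.

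Factors that bind AU-rich elements or degrade messages, which shorten the life of Tnf and other cytokine messages, had 14 of 26 genes lower and 1 higher, with a median of -0.97, and 9 were lower without pool E. Zc3h12a, the endonuclease regnase-1, had 27.6, 24.3 and 30.9 CPM against 166, 147 and 133 (log2 ratio -2.43, adjusted p 1.8e-07). Zfp36l1, a decay factor of the tristetraprolin family, had 68.9, 36.0 and 60.6 CPM against 406, 348 and 286 (log2 ratio -2.68, adjusted p 1.3e-07). Zc3h12c, a relative of regnase-1, had a log2 ratio of -2.45 and Xrn1, the 5′ exonuclease, one of -2.12. All polysome values of these 4 genes lay below all of their total RNA values.

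The inhibitor targets the MAPK pathway. Braf itself had 13, 5.27 and 7.95 CPM in polysome RNA against 30.4, 25.8 and 22 in total RNA (log2 ratio -1.63, SE 0.33, adjusted p 0.0012); these values do not separate the mutant from the normal allele. Of 24 output and feedback genes of MAPK signalling, 4 were lower and 0 higher, where 17% and 12.6% of all tested protein-coding genes were. Their median was -0.50, and -0.86 without pool G and -0.26 without the block for pools. The lower ones were Dusp1, a phosphatase of MAP kinases, at 23.5, 18.1 and 33.1 CPM against 57.5, 74.5 and 79.0 (log2 ratio -1.52), Spred1 (-1.13), Epha4 (-1.92) and Dusp4 (-3.58, with an adjusted p of 0.062 with all 12 LCH libraries in the fit). Of 24 immediate early genes, 6 were higher and 2 lower. Jund, an AP-1 subunit, had 706, 582 and 373 CPM against 153, 151 and 110 (log2 ratio 1.97, adjusted p 5.8e-07), Ier2 and Ier3 had log2 ratios of 1.71 and 1.43, and the transcription factor Klf6 was lower at -1.14.

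Interferon-response genes held large ratios of both signs. Of 30, 15 were lower and 3 higher, with a median of -0.85, and with no block for pools 8 were lower. With nuclear protein-coding genes only, 28 of the list were tested, with 13 lower, 3 higher and a median of -0.61. Isg15, a ubiquitin-like protein, had 6058, 4872 and 5761 CPM against 442, 482 and 654 (log2 ratio 3.42, adjusted p 1.1e-08), and Bst2, which tethers virions to the cell surface, had 1040, 1564 and 1118 CPM against 136, 166 and 218 (log2 ratio 2.84). Ifih1, the RNA sensor MDA5, had 100, 149 and 253 CPM against 485, 493 and 864 (log2 ratio -1.93, adjusted p 1e-06). Gbp5, a guanylate-binding protein, had a log2 ratio of -1.73.

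Messages with known translational switches behaved as follows. Fth1, the ferritin heavy chain, whose message carries an iron-responsive element that holds back translation when iron is scarce, had 2093, 2041 and 2375 CPM against 6944, 7741 and 7053 (log2 ratio -1.74, adjusted p 2.5e-06). Ftl1, the light chain, whose message carries the same kind of element, had 5455, 4901 and 4606 CPM against 5297, 5491 and 4645. Its fractions overlapped, and its log2 ratio was -0.04 (adjusted p 0.91), with a sign that changed with the scaling. Of 9 iron genes 5 were lower and 0 higher, and 2 were lower without pool E and 3 without pool G. Slc11a1, an iron and manganese transporter of phagosomes, fell by 2.07.

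Of 27 messages known for upstream reading frames or for the integrated stress response, 6 were higher and 5 lower. Without pool E or without pool G, 3 were lower. The shares over all tested protein-coding genes were 12.6% higher and 17% lower. Cebpb, a transcription factor made in long and short forms from one message, had 427, 611 and 202 CPM against 55.8, 63.1 and 39.5 (log2 ratio 2.86, adjusted p 4.8e-08). Atf4, the effector of the integrated stress response, had 350, 423 and 214 CPM against 187, 191 and 143 (log2 ratio 0.88, adjusted p 0.0018). Without pool F its value was 0.71 with an adjusted p of 0.11, and with the authors' gene-wise factors it was 0.50 with an adjusted p of 0.18. Azin1, which inhibits antizyme, was lower with a log2 ratio of -1.21. Ftl1 and Atf4 were named after their values were seen. Of 15 selenoprotein genes, whose messages recode a stop codon, 7 were higher and 3 lower: Gpx4, which reduces lipid peroxides, had a log2 ratio of 2.51, and 4.0 with the authors' gene-wise factors, Selenok one of 2.35, and the thioredoxin reductase Txnrd1 one of -1.89.

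Antigen presentation and cell type markers were mixed as well, where 12.6% of all tested protein-coding genes were higher and 17% lower. Of 11 genes of MHC class II presentation, 4 were higher and 1 lower, with DESeq2 size factors 8 were higher, and without pool E 2 were. H2-Aa and H2-Ab1, both chains of the class II molecule, had 6825, 4033 and 6885 CPM against 2478, 2370 and 2535, and 8502, 4898 and 9651 CPM against 3484, 3424 and 3423 (log2 ratios 1.22 and 1.10). Ciita, the factor that switches on class II genes, was lower at 134, 115 and 148 CPM against 369, 296 and 276 (log2 ratio -1.24). Of the 17 dendritic markers 3 were higher and 6 lower (3 lower without pool E), Ccr7, the lymph node homing receptor, among the latter with a log2 ratio of -1.34. Of 17 macrophage and monocyte markers 4 were higher and 6 lower, with C1qa of complement at 1.61 and the surface receptor Adgre1 at -1.74. Of 18 neutrophil and granulocyte markers 7 were higher and 2 lower (1 lower without pool E or G). Among the list, S100a9 had 1138, 848 and 392 CPM against 89.5, 69.3 and 62.0 (log2 ratio 3.32) and S100a8 had a log2 ratio of 2.66. The summed level of the 18 markers was 805 to 2124 CPM in polysome RNA. The part of other cell types in the ratios above was not tested. Of 61 genes listed as KRAB zinc finger genes, a family known for repressors of retroelements, 7 were lower (Zfp445 at -2.04) and 0 higher. Whether each listed gene belongs to that family was not tested. Of all tested protein-coding genes 17% were lower and 12.6% higher, so these KRAB counts are not above that background. The median ratio of the KRAB list was -1.94 and -1.34 in pools E and F and -0.18 in pool G, the pool with satellite-type counts. Leaving out pool E, F or G, 3, 11 and 5 of them were lower.

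The last comparison asked whether the polysome-to-total ratio differed between treated and untreated LCH cells. The interaction of fraction and inhibitor over the 12 LCH libraries called 0 of 14129 protein-coding genes (0%) in edgeR's quasi-likelihood test. An unadjusted p below 0.05 was found for 234, a smaller share than the 0.05 that would pass if no ratio differed. A test that is too strict would also give such a share, and this was not tested. The 0 calls therefore do not show that the ratios were alike. DESeq2 called 2 higher and 1 lower. In untreated LCH cells, as a contrast of this fit over 12 libraries, 4265 of the 14129 protein-coding genes (30.2%) were called, 2002 (14.2%) higher in polysome RNA and 2263 (16%) lower. The same fit called 1668 higher and 2768 lower in treated cells. Of the 3994 genes called in treated cells by the fit over their 6 libraries alone, 3445 were called in the same direction in untreated cells, which is 86.3% of the treated and 80.8% of the untreated calls, and 0 in the opposite one. Over 8509 genes with at least 5 CPM, the log2 ratios of treated and untreated cells had a Pearson correlation of 0.926 and a Spearman correlation of 0.931 across genes, as a description without a test. The libraries were different but came from pools of the same letters. Pool G was unlike in the 2 states. Satellite-type models took 25.6% of its polysome and 25.4% of its total RNA counts in treated cells. In untreated cells they took 0.41% and 1.87%. The part of this imbalance in the comparison was not tested. For Tnf the ratio was -0.16 in untreated cells and -0.22 in treated cells.

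Genes of at least 5 CPM with the smallest unadjusted p in each direction follow, with CPM on the scale of the fit over 12 libraries. Ano6 had 1.12, 0.926 and 5.55 CPM in polysome RNA of treated cells and 7.38, 13.4 and 6.28 CPM in untreated cells, with 29.6 to 39.3 CPM in every total RNA library (difference of log2 ratios -2.16, SE 0.53, unadjusted p 0.00024 and adjusted p 1 in edgeR's test). Xiap, an inhibitor of caspases, had 3.57, 4.63 and 7.01 CPM in polysome RNA of treated cells against 13.1, 8.94 and 19.5 in untreated cells (difference -1.38, adjusted p 1, and 0.0058 without pool F). Tcn2, a vitamin B12 carrier, had 5.95, 3.71 and 10.6 CPM against 11.9, 17.9 and 21.5 (difference -1.51), and Ciao2b and Hmgn3 had differences of -1.66 and -1.77. In the other direction B3gnt2, a glycosyltransferase, had 2.78, 10.4 and 2.20 CPM in polysome RNA of treated cells and no count in untreated cells, with 79.8 to 118 CPM in total RNA. Its adjusted p was 1 in the main test, 2.8e-17 with no low-count filter, 0.000996 with DESeq2 and 6e-10 without pool F. Zfp866 and Syne1 had differences of 2.41 and 1.58. C2cd6 had counts in pool G alone, with 1.36 CPM in polysome RNA of treated cells and 170 CPM in untreated cells against 0.229 and 143 CPM in total RNA. None of these passed the adjusted threshold in the main test, and a p that misses it does not show that the ratios were alike.

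**Figure D5:**
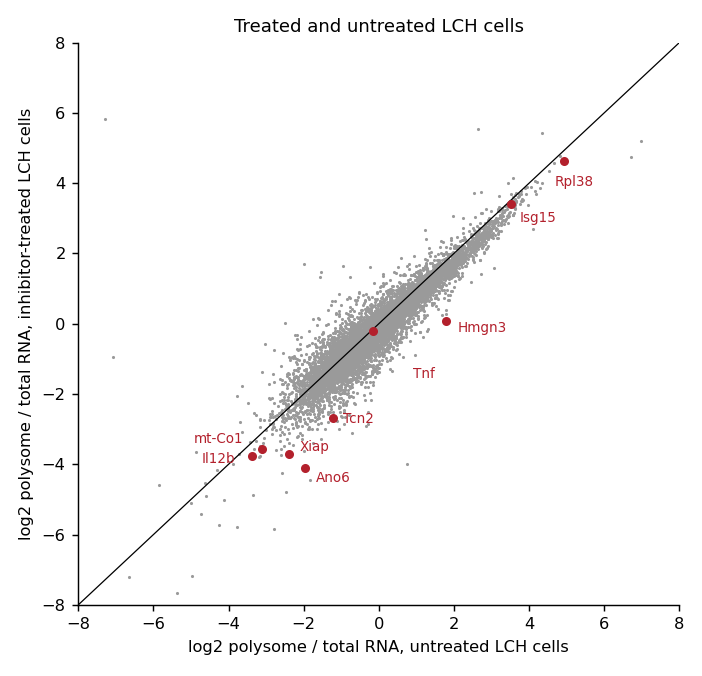
Each point is a protein-coding gene of at least 5 CPM, with its log2 ratio of polysome over total RNA in untreated LCH cells on the x axis and in inhibitor-treated LCH cells on the y axis; 11 genes beyond the axes are not drawn. Most of the 8509 genes lie along the line of equal ratios, with Tnf near the centre at -0.16 and -0.22, and Ano6, Xiap, Tcn2 and Hmgn3 below the line.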

How the data were processed

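RNA was sequenced from polysome fractions and from total RNA of the same cells, per the labels' protocols. The deposited table holds raw counts per gene, which the authors obtained with Salmon and DESeq2, per the submitters' processing notes, which also name the build mm9; library kits beyond standard Illumina protocols and counting settings are not given in the sources used here. A second deposited table holds normalized counts (unit signal here); each equals the raw count divided by a factor that differs between genes, and it was used only for those factors. The authors' regularised log tables were not used.

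The 3 polysome and 3 total RNA columns of treated LCH cells were taken by name; no label ties the pool letters to replicate numbers, and the polysome column of pool GH was paired with pool G. Rn18s, Lars2, mt-Rnr1 and mt-Rnr2 were left out. Genes passing filterByExpr (minimum count 10) were fitted in edgeR 4.0.16 (R 4.3.3) with TMM scaling, pool as block and a robust quasi-likelihood F test, two-sided. The other fit used the interaction of fraction and inhibitor over 12 libraries. DESeq2 1.42.0 was an alternative. CPM are TMM-scaled, not per length, so levels are not compared between genes. Pairing follows the study's design text; deviations of same-pool fractions correlated at 0.53, 0.23 and 0.68 for pools E, F and G, but polysome E also correlated with total F at 0.50 and polysome F with total E at 0.17, so the deviations set apart pool G but not E from F. On simulated data (15739 genes, 200 changed) the fit recovered 21% of changes of log2 1 and 72.3% of log2 2. Median estimates were 1.00 and 1.97, and 29.4% of its calls were unchanged genes, above the nominal share. In the real data 26.5% of the genes tested were called. Because the share of changed genes was so unlike, neither the recovery nor the 29.4% can be carried over to the real calls.

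Named genes were Tnf and Braf, the 12 largest called rises and falls of at least 5 CPM with one sign in 3 pools and an established name, up to 4 members per list with the smallest p, and 5 per direction for the interaction; those described in the text are a subset, and some items are not reported here. The members and the 37 gene lists were chosen with earlier results of these data known. Lists are described by counts and medians, without a set test. Counts of lists and alternatives stand in the closing section. Protein or transcript length was not used; gene span came from the file's start and end positions, chosen after seeing the data, and no coordinate of that file is printed because its build is not named there.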

Additional observations from a re-analysis of the deposited data

How the results depend on the processing

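Under all 12 alternatives the counts of protein-coding genes called higher and lower stayed within 1.5 times the main counts of 1699 and 2295; without the replicate block for pools they were 1833 and 2036, and leaving out each pool in turn gave 1231 to 1640 higher and 1548 to 2616 lower. For the interaction with the inhibitor, calls rose from 0: 2 higher and 1 lower with no low-count filter, 2 higher and 1 lower with DESeq2, and 0 to 4 higher and 0 to 4 lower leaving out a pool (4 and 4 without pool F, 1 lower without pool G); without the replicate block it was 0. The share taken by ribosomal RNA-type genes was 27.9 to 48.9 percentage points higher in polysome RNA leaving out a pool, and that of mitochondrial messages -2.15 to -1.74. Single genes changed sign in 7 of their values: Ftl1 had 0.0765 with DESeq2 size factors and 0.0766 with DESeq2's test, 0.13 with upper quartile scaling, 0.0039 with nuclear protein-coding genes only and 0.37 with the authors' gene-wise factors, Atp5b had 1.03 with those factors and mt-Co2 had -0.047 without pool F. Without pool G mt-Co2 had 0.754 and passed the threshold. In all, 23 values lost their call and 5 gained one. The gene-wise factors were an alternative added after seeing the data. The cause of these changes was not tested. Depth limits low genes: pool F held 4326187 polysome counts outside the ribosomal RNA-type genes, the fewest of the treated libraries.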
